A study of Mus musculus with 2 samples.

Results

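The interferon-stimulated genes were examined in Tregs of bleomycin (BLM)-injured mice, in 1 library of splenic and 1 library of lung cells. The list of 39 symbols was chosen by name, with earlier results of these data known, and all 39 were found among the 24346 symbols of both libraries. The mice were Foxp3-DTR-GFP (FDG) mice of 10 to 16 weeks, which carry GFP and the diphtheria toxin receptor under control of Foxp3, so that GFP marks Tregs. All of them received 50 μg of BLM intratracheally, and on day 15 the GFP+CD4+ cells of both organs were sorted. Cells of 3 mice were pooled into each library, so the spread between mice was not measured, and no untreated group is part of these libraries. FPKM, fragment counts normalised for exon length and for the number of mapped fragments, summed to 599633 in spleen and 808853 in lung. The files give FPKM and no counts, but at low values the FPKM fell into steps of 1 read, from which about 9648663 reads in spleen and 12634380 in lung were estimated over genes with a known transcript length.

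Interferons are cytokines that cells release on infection or damage. Type I interferons act through the receptor chains Ifnar1 and Ifnar2 and the kinases Jak1 and Tyk2, which lead to a complex with Stat2 and Irf9 that binds the interferon-stimulated response element (ISRE) of target genes. Interferon-gamma acts through Ifngr1 and Ifngr2 and leads to binding at the gamma-activated site (GAS). The target genes include sensors of foreign nucleic acids, antiviral effectors and regulators of the pathway itself, and resting T cells express many of them at a low level. In Tregs, type I interferon is known to influence suppressive function.

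The promoters were searched for the letters that these factors recognise. Windows from 250 bases before to 50 bases after the annotated start were taken from RefSeq (GRCm38.p6, the assembly of mm10), and 29 of the 39 genes were matched by symbol. The others were Oas2, Mx1, Mx2, Ifi27l2a, Usp18, Rtp4, Dhx58, Zbp1, Parp9 and Parp14. The ISRE was searched as TTTC, any 2 bases and TTTC, and the GAS as TTCNNNGAA on both strands, where N is any base. An ISRE was found for 14 of the 29 genes (48.3%), against 3.99% of all 27025 genes in the table, and a GAS for 6 (20.7%), against 9.55%. In Isg15 the matches overlapped into a run of 22 bases, from -78 to -57 relative to the start, and Ifit1 and Ifit3 each held a pair of separate elements. In Ddx58, Ifih1 and Eif2ak2 the element lay just after the start, within the transcribed part, and so did an element of Trim30a. The elements below are given 5′ to 3′ on the strand of the gene, with the motif in capitals and flanking bases in lower case, for genes that the results below turn on. The last of them is the GAS of Irf1, the others are ISREs. They lie at chr4:156200871-156200900 (Isg15, minus strand), chr5:120907526-120907549 (Oas1a, minus), chr19:34640781-34640798 and chr19:34640800-34640817 (Ifit1, plus), chr19:34583369-34583386 (Ifit3, plus), chr4:40239810-40239827 (Ddx58, minus), chr2:62646210-62646227 (Ifih1, minus), chr3:142559995-142560018 (Gbp3, plus) and chr11:53769920-53769936 (Irf1, plus).
Isg15: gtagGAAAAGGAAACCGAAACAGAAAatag
Oas1a: tcggGAAATGGAAACTGAAAatct
Ifit1, first: tcagTTTCACTTTCcagt
Ifit1, second: tcagTTTCAGTTTCtcac
Ifit3: taagTTTCACTTTCctct
Ddx58: gcagTTTCGATTTCctat
Ifih1: aatcGAAACAGAAAccga
Gbp3: acagTTTCAGTTTCTATTTCccag
Irf1: tgatTTCCCCGAAatga

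**Figure D1:**
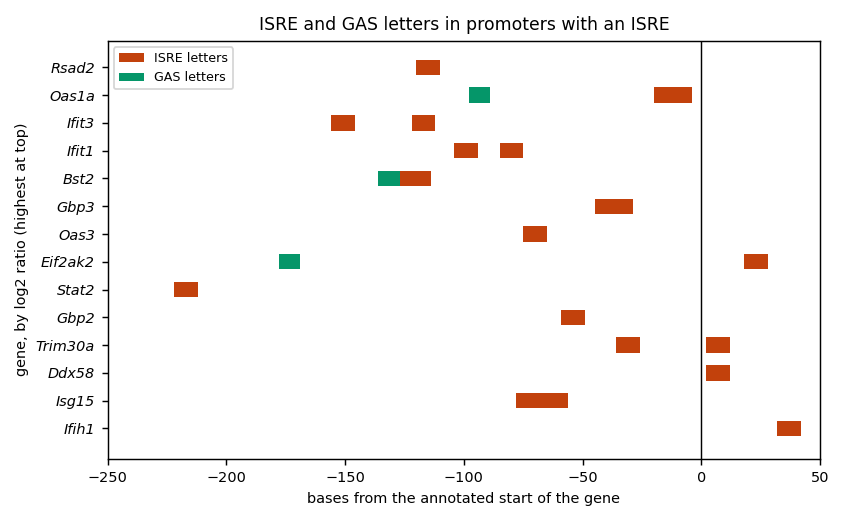
Positions of the ISRE letters (orange) and GAS letters (green) in the promoters of the 14 genes with an ISRE, in bases from the annotated start (x axis), ordered by log2 ratio of lung to spleen with the highest at the top. Most ISREs lay within the 160 bases before the start, and the log2 ratios of these 14 genes ran from 1.83 (Rsad2) to -1.18 (Ifih1).

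To ask whether Tregs in the injured lung differed from splenic Tregs in these genes, the lung FPKM was divided by the splenic FPKM, with values under 0.1 set to 0.1. Interferon-stimulated genes were spread around equal levels in the 2 libraries, with members on either side. The median log2 ratio of the 39 genes was -0.05, against 0.03 over the 12094 genes whose higher value reached 1 FPKM, as it did for all 39. Of the 39, 18 were higher in lung and 21 lower, and 29 stayed within 2-fold, which is 74.4% against 66.8% of all genes at that level. Over 2-fold higher in lung were 6 genes (15.4%), Mx2, Rsad2, Oasl2, Ifi27l2a, Oas1a and Xaf1, and the background of genes that far higher was 17.8%. Over 2-fold lower were 4 genes (10.3%), Ifi44, Oas2, Parp9 and Ifih1, and the background was 15.5%. Neither share exceeded that of all genes at 1 FPKM or more. None was over 20-fold different in either direction, as 5.61% of all genes were. The study used 20-fold to call genes upregulated in lung Tregs in its bulk comparison with spleen. Because each library is bulk RNA, a lower share of cells with the transcript and less transcript per cell cannot be told apart. Each tissue is 1 library, so the differences could not be set against the spread between replicates and were not tested.

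**Figure D2:**
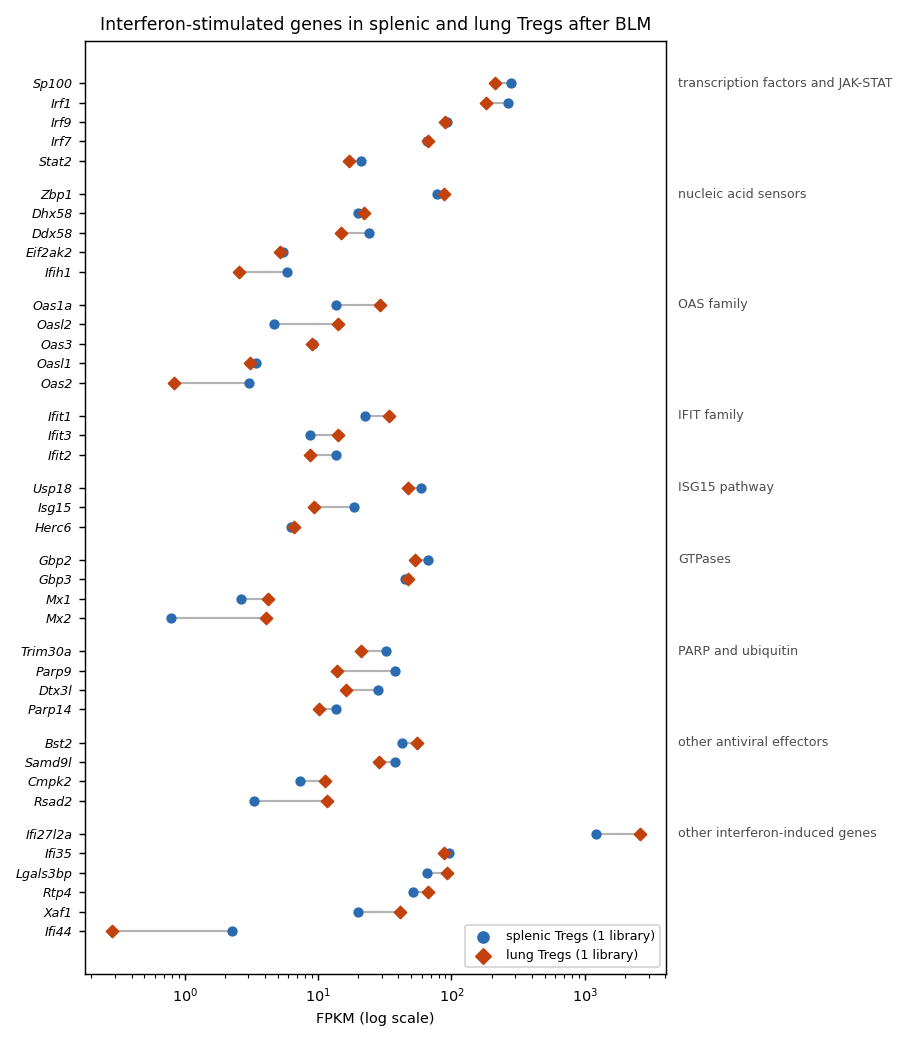
FPKM (x axis, log scale) of the 39 interferon-stimulated genes in splenic Tregs (blue circles) and lung Tregs (orange diamonds), 1 library each, grouped by role. Most pairs lie close together, and the widest gaps belong to Ifi44, Mx2, Oas2 and Rsad2, which were at 11.7 FPKM or less in both libraries.

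The widest differences were found among genes of low level. Among the 30 members whose higher value reached 10 FPKM, 24 (80%) were within 2-fold, close to the 79.2% of the 7279 genes at that level. Of these 30, 5 (16.7%) were over 2-fold higher, above the background of 11.6%. Only Parp9 (3.33%) was over 2-fold lower, below the background of 9.15%. Rescaled to TPM as described below, the counts were 2 and 6 of the 30, against 543 and 1498 of the 7279 genes. Both comparisons thus changed with the scale. The 9 members under 10 FPKM held Mx2 as the only gene over 2-fold higher and Ifi44, Oas2 and Ifih1 as those over 2-fold lower. At 1 to 10 FPKM, 27% of all genes were over 2-fold higher and 25% over 2-fold lower, so that differences of this size were common at low levels. Over 20-fold in either direction were 2.95% of genes from 10 FPKM on and 9.64% of those at 1 to 10 FPKM, and 0 members. Reads behind the members ranged from about 18 to 5153 in spleen and from about 9.01 to 7745 in lung. Exact binomial intervals were computed from these reads at 95%, and they cover counting error only, not the variation between mice or PCR copies. By that measure alone, the interval of 31 members left out a log2 ratio of 0 and that of 8 members included it.

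**Figure D3:**
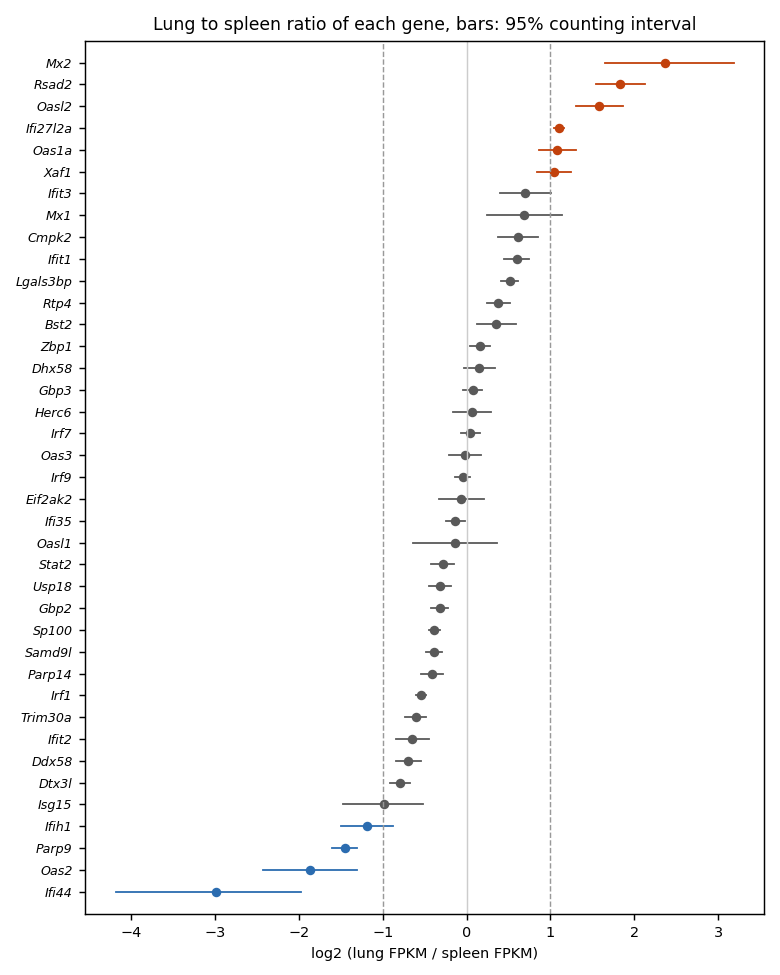
The log2 ratio of lung to spleen FPKM (x axis) of the 39 genes, with 95% counting intervals as bars and dashed lines at 2-fold. Orange marks the 6 genes over 2-fold higher in lung and blue the 4 over 2-fold lower, and the intervals widen towards the ends, where Mx2, Oas2 and Ifi44 rested on few reads.

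The transcription factors of the response were present at substantial levels and differed little between the tissues at the deposited scale. Irf9, the DNA-binding subunit of the type I interferon complex, had 91.9 FPKM in spleen and 88.8 in lung, and its partner Stat2 was at 20.9 and 17.1. Irf7, which amplifies the production of type I interferon and is itself induced by it, was at 65.1 and 67.1. At that scale Irf7 and Irf9 had log2 ratios of 0.04 and -0.05, with counting intervals of -0.07 to 0.16 and -0.13 to 0.04. These intervals cover counting error only. Over the scalings described below the ratios ran from -0.39 to 0.23 for Irf7 and from -0.48 to 0.14 for Irf9. Irf1, a factor that responds early to interferon-gamma and whose promoter holds the GAS printed above, had 264 FPKM in spleen and 181 in lung, a log2 ratio of -0.54. Sp100, a component of nuclear bodies, was at 277 and 212. All 5 genes of the group were within 1.5-fold at the deposited scale, as were 4185 of the 7279 genes at 10 FPKM or more. With the rescaling to TPM described below the median log2 ratio of the 5 was -0.72, against -0.40 over all genes, and Irf1 was at -0.97. By mean FPKM, Sp100 and Irf1 came next after Ifi27l2a among the members.

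Among the sensors of nucleic acids, the RNA helicases Ddx58 (RIG-I) and Ifih1 (MDA5) were lower in lung and the others were level. Ifih1, a sensor of long double-stranded RNA, had 5.83 FPKM in spleen and 2.57 in lung, about 262 and 131 reads, or 2.27-fold lower. Ddx58, a sensor of RNA ends, was at 24.0 and 14.8 FPKM, a log2 ratio of -0.70. Their relative Dhx58 (LGP2), which regulates both, was at 19.9 and 22.1. Zbp1, a sensor of nucleic acids in the Z form that can start cell death, was at 78.2 and 87.2, and Eif2ak2 (PKR), a kinase that halts translation on binding double-stranded RNA, was at 5.43 and 5.20. The log2 ratio of Dhx58, 0.15, lay above those of Ddx58 and Ifih1, and turned below 0 with TPM, which moves all genes alike.

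The OAS family held genes over 2-fold different in both directions, and Oas2 and Oasl2 each lay beside a relative within 1.5-fold. These enzymes make oligoadenylates that activate the nuclease RNase L, and Oasl1 and Oasl2 are their relatives with ubiquitin-like ends. Oas1a had 13.7 FPKM in spleen and 29.1 in lung, 2.12-fold higher, and Oasl2 was at 4.71 and 14.1, 2.99-fold higher. Oas2 was at 3.06 in spleen and 0.837 in lung, about 118 and 36.5 reads, or 3.66-fold lower. Oas3, on the same strand and 27808 bases from Oas2 by start, was at 9.18 and 9.02, and Oasl1, 26304 bases from Oasl2, was at 3.42 and 3.10. The family lies on chromosome 5 (mm10), with Oas2 at 120730333 to 120749853, Oas3 at 120753098 to 120777661, Oas1a at 120896256 to 120907521, Oasl2 at 114896936 to 114912234 and Oasl1 at 114923240 to 114937915. Oas1a shares 47.6% of its 75-base windows with Oas1g, so its reads could have been divided between them, and Oas1g was listed at 0.259 and 0.365 FPKM.

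Of the IFIT genes, which encode proteins that bind foreign RNA and are among the most inducible by interferon, Ifit1 and Ifit3 were higher in lung and Ifit2 was lower. Ifit1 had 22.5 FPKM in spleen and 33.9 in lung, Ifit3 had 8.73 and 14.1, and Ifit2 had 13.7 and 8.72. Their log2 ratios were 0.60, 0.70 and -0.65, so none passed 2-fold. The 3 genes lie on the plus strand of chromosome 19, from 34550694 for Ifit2 through 34583531 for Ifit3 to 34640871 for Ifit1. Of the windows of Ifit3, 41.1% are also in Ifit3b, which had 2.19 FPKM in spleen and 0.753 in lung, opposite to Ifit3, so the split of reads between them is uncertain.

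Isg15, the ubiquitin-like modifier that gives the pathway its name, had 18.5 FPKM in spleen and 9.30 in lung. This is a log2 ratio of -0.99, just inside 2-fold, and it rested on about 105 and 60.0 reads with a counting interval of -1.47 to -0.52. Usp18, the protease that removes Isg15 and restrains signalling at Ifnar2, was at 59.4 and 47.5. Herc6, the ligase that attaches Isg15 in mice, was at 6.30 and 6.58, with 22.4% of its windows shared with the predicted gene Gm45193. Isg15, Parp9 and Dtx3l had the lowest log2 ratios among members whose higher value reached 10 FPKM, and Rsad2, Oasl2 and Ifi27l2a had the highest. Of these 6 genes, 4 were matched to a promoter, and the windows are printed below as the sequence of the most divergent members. Their positions are chr12:26456403-26456702 for Rsad2 (minus strand), chr5:114896684-114896983 for Oasl2 (plus), chr4:156200769-156201068 for Isg15 (minus) and chr16:35938978-35939277 for Dtx3l (minus). Capitals mark the ISRE letters, which are in Rsad2 and Isg15, a gene from each end of the order.
Rsad2: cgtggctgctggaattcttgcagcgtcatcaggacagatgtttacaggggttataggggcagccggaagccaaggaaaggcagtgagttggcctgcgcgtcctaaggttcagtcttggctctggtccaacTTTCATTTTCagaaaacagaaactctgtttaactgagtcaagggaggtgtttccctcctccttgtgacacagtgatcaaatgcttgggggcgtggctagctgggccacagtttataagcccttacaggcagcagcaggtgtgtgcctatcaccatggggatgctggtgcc
Oasl2: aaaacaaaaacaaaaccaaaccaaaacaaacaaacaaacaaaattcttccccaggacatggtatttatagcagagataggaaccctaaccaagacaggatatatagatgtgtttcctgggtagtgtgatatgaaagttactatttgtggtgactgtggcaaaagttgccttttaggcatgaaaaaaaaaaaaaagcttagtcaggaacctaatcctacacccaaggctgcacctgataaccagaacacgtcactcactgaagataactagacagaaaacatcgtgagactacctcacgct
Isg15: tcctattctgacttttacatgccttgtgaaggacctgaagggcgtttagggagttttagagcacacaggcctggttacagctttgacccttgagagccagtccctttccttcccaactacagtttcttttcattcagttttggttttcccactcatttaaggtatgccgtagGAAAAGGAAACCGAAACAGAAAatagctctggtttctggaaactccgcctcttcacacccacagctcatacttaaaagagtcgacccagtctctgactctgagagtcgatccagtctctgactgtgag
Dtx3l: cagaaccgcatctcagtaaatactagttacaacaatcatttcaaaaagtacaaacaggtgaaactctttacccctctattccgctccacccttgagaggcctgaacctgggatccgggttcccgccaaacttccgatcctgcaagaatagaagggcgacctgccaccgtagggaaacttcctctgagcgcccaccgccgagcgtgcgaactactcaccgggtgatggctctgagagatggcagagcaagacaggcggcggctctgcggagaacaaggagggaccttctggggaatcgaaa

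Over all 29 matched genes, the 14 with an ISRE had a median log2 ratio of -0.04 and ranged from -1.18 to 1.83, and the 15 without had a median of -0.13 and ranged from -2.99 to 1.58. In each class 2 genes were over 2-fold higher and 1 was over 2-fold lower. Mx2, Ifi27l2a, Oas2 and Parp9, also over 2-fold different, had no matched promoter. An element outside the window or with other letters would be missed. With so few genes in each class, whether the letters go with a direction could not be judged.

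The GTPases of the list, which assemble on viruses and on membranes around pathogens, were within 2-fold except for Mx2. Gbp2 had 67.1 FPKM in spleen and 53.7 in lung, and Gbp3 had 44.9 and 47.2. Mx1 was at 2.62 and 4.23. Mx2, annotated in GENCODE as a polymorphic pseudogene, was at 0.786 and 4.07 FPKM, 5.18-fold higher in lung and the highest ratio of all 39 genes, on about 18 and 106 reads. The Mx genes lie on chromosome 16 on opposite strands, with starts 72401 bases apart, and 3.02% of the windows of Mx2 are also in Mx1.

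All 4 genes of the PARP and ubiquitin group were lower in lung, with a median log2 ratio of -0.70. Of the 12094 genes at 1 FPKM or more, 5868 were lower, and their median was 0.03. Parp9 and its partner Dtx3l, a ubiquitin ligase, act as a complex in the response to interferon and to DNA damage. Parp9 had 38.1 FPKM in spleen and 13.9 in lung, 2.74-fold lower on about 1318 and 545 reads, with a counting interval of -1.60 to -1.31. Dtx3l was at 28.2 and 16.3 FPKM, a log2 ratio of -0.79. The pair lies head to head on chromosome 16, Dtx3l at 35926511 to 35939151 on the minus strand and Parp9 from 35938470 to 35972605 on the plus strand, so that the annotated genes overlap there, with starts 681 bases apart, and the reads carry no strand, so those in the overlap cannot be assigned. Parp14, on the same chromosome with a start 67607 bases from that of Dtx3l, was at 13.7 and 10.2, and Trim30a, an interferon-induced TRIM protein, at 32.1 and 21.0.

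Among the remaining effectors, Rsad2 (viperin), which makes a chain-terminating nucleotide, had 3.29 FPKM in spleen and 11.7 in lung, 3.57-fold higher on about 122 and 494 reads. Its neighbour Cmpk2, a nucleotide kinase transcribed in the opposite direction with a start 12752 bases away on chromosome 12, was at 7.31 and 11.2, a log2 ratio of 0.62. Both genes of this pair were thus higher in lung, and both of the Parp9 and Dtx3l pair were lower. Neighbours of the same direction were also Ifit1 and Ifit3, Mx1 and Mx2, Oas2 and Oas3, and Parp14 with Parp9 and Dtx3l. Ifit2 went opposite to Ifit1 and Ifit3, Gbp2 to Gbp3, and Oasl1 to Oasl2. Bst2 (tetherin), which holds budding viruses at the cell surface and is also a surface marker of plasmacytoid dendritic cells, was at 42.9 and 54.8. Samd9l, a restriction factor and growth regulator, was at 37.9 and 28.8.

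Ifi27l2a was by far the most abundant member, at 1208 FPKM in spleen and 2584 in lung, on about 3190 and 7745 reads. It was 2.14-fold higher in lung and made up 43.5% of the summed FPKM of the 39 genes in spleen and 64.2% in lung. The sum of all members was 2778 in spleen and 4025 in lung, and without Ifi27l2a it was 1570 and 1442. A summed score over these genes would therefore follow Ifi27l2a, and the log2 ratio of the sum of the other 38 genes was -0.12, or -0.55 when rescaled to TPM and 0.07 when scaled to the T cell markers. The log2 ratio of the full sum was 0.53, or 0.10 with TPM. Xaf1, which promotes cell death, was at 20 and 41.2 FPKM, 2.06-fold higher, and Lgals3bp, a secreted galectin-binding glycoprotein, at 65.3 and 93.0. Rtp4, a chaperone of receptors, was at 51.8 and 67.2, and Ifi35 was level at 96.2 and 87.7. Ifi44 had 2.25 FPKM in spleen and 0.283 in lung, 7.95-fold lower and the lowest ratio of the list, but it rested on about 63.0 and 9.01 reads with a counting interval of -4.18 to -1.98.

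**Figure D4:**
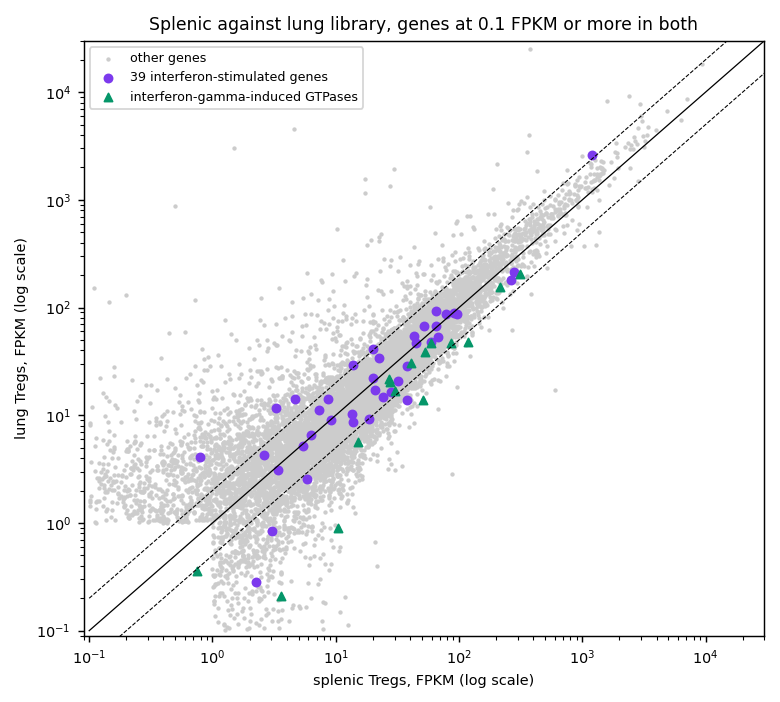
Lung FPKM against splenic FPKM (log scales) of genes at 0.1 FPKM or more in both libraries, with the 39 interferon-stimulated genes in purple, interferon-gamma-induced GTPases as green triangles and other genes of at least 1 FPKM in the higher library in grey. Solid and dashed lines mark equal values and 2-fold, and the purple points lie around the line of equal values while the green ones lie below it.

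Upstream of these genes, Ifng was the only interferon gene listed above 0 in both libraries. Of 21 interferon genes, 17 were listed at 0 in both libraries, Ifnb1 among them. Ifng, the cytokine of T helper and NK cells, had 12.4 FPKM in spleen and 11 in lung, about 128 and 124 reads. Ifna7 was at 0 in spleen and 4.62 FPKM in lung on about 19.8 reads, and shares 18% of its windows with other type I genes. Ifnk and Ifnz, also at 0 in spleen, had about 1.95 and 2.0 reads in lung.

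The receptors and signalling genes had a median log2 ratio of -0.25, or -0.38 over the 15 that reached 1 FPKM. Over 2-fold higher were 2 of 16 (12.5%) and none was over 2-fold lower, against 17.8% and 15.5% of genes at 1 FPKM or more. With the rescaling to TPM described below the counts were 0 and 6, against 1586 and 3133 of the 12094 genes. Ifngr1, the ligand-binding chain of the interferon-gamma receptor, had 269 FPKM in spleen and 696 in lung, 2.59-fold higher, and Ifngr2 was at 38.5 and 62.6. The type I chain Ifnar1 was at 32.3 and 17.1, 1.89-fold lower, and Ifnar2 at 82.5 and 82.7. The kinases Jak1, at 244 and 163, Jak2, at 37.1 and 22.3, and Tyk2, at 16 and 9.78, were all 3 lower in lung, by 1.5-fold for Jak1 to 1.66-fold for Jak2. Socs3, an inhibitor of cytokine signalling induced by Stat3, was at 39.2 and 81.7, and Stat3 at 89.3 and 108. Of 16 sensors and adaptors upstream of interferon, none was over 2-fold higher, against the same 17.8%. Only Tlr3 (6.25%) was over 2-fold lower, against 15.5%, with about 22.6 and 1.96 reads. With TPM, 0 were over 2-fold higher and 5 over 2-fold lower, against the same 1586 and 3133 of 12094 genes. The median of the sensors and adaptors was -0.05, or 0.04 over the 14 that reached 1 FPKM. Trim25 (13.4 and 23.2 FPKM), Irf5 (26.8 and 46.3) and Mavs (20.3 and 33.9) were higher and Ikbke (83.3 and 48.8) lower.

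Of the interferon-gamma-induced GTPases outside the list, also chosen with earlier results known, all 16 were lower in lung. Among the 12094 genes at 1 FPKM or more, 5868 were lower. The median log2 ratio of the 16 GTPases was -0.86, or -0.53 with a floor of 1 FPKM. Over the 14 of these GTPases that reached 1 FPKM the median was -0.72, against 0.03 over all genes at that level. Over 2-fold lower were 7 of the 16 (43.8%), of which 5 reached 1 FPKM, and none was over 2-fold higher, where the shares of all genes were 15.5% and 17.8%. These proteins attack the vacuoles of intracellular pathogens. Irgm1, a regulator of the family, had 119 FPKM in spleen and 47.9 in lung, 2.48-fold lower. Gbp9 was at 51.5 and 14.0, 3.68-fold lower, Gbp10 at 10.3 and 0.896, and Tgtp1 at 15.2 and 5.68. Gbp10 and Tgtp1 share 75.5% and 87.7% of their windows with relatives, so their own values are uncertain, whereas Irgm1 shares none and Gbp9 4.32%. Of those within 2-fold, Gbp6 and Tgtp2 share 86.0% and 85.2%, so the 16 values are not all separate measurements. The annotated spans of Gbp4, Gbp8 and Gbp9 overlap on the minus strand, and those of Igtp and Irgm2 on the plus strand. The other 3 over 2-fold lower were of low level, Gbp5 at 3.57 and 0.211 FPKM, Gvin1 at 0.748 and 0.356, and Gbp11 at 0.964 in spleen and listed at 0 in lung, and Gvin1 shares 98.3% of its windows with other genes. The most abundant were Ifi47 (310 and 205) and Igtp (214 and 154), lower by 1.51-fold and 1.39-fold. Gbp2 and Gbp3 of the list thus had higher ratios than most of their relatives, with log2 ratios of -0.32 and 0.07.

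A further 41 genes known to respond to interferon had a median log2 ratio of -0.08, with 6 (14.6%) over 2-fold higher and as many over 2-fold lower, near the 17.8% and 15.5% of all genes. With TPM the counts were 4 and 12, against 1586 and 3133 of the 12094 genes. Among those at 10 FPKM or more, membrane proteins that block viral entry had the highest ratios, Ifitm3 at 46.0 FPKM in spleen and 252 in lung and Ifitm2 at 45.6 and 197, which are 5.48-fold and 4.32-fold higher, and Ifitm1 at 4.60 and 12. Of Ifitm2, 42.0% of windows are shared with other annotated genes. Trim21, an antibody receptor of the cytosol, was at 41.2 and 12.1. Among the interferon-induced chemokines, Ccl5 was at 160 and 352 FPKM, Cxcl10 at 16.9 and 26.4, Cxcl9 at 0.429 and 0.41, and Cxcl11 at 0 in both.

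**Figure D5:**
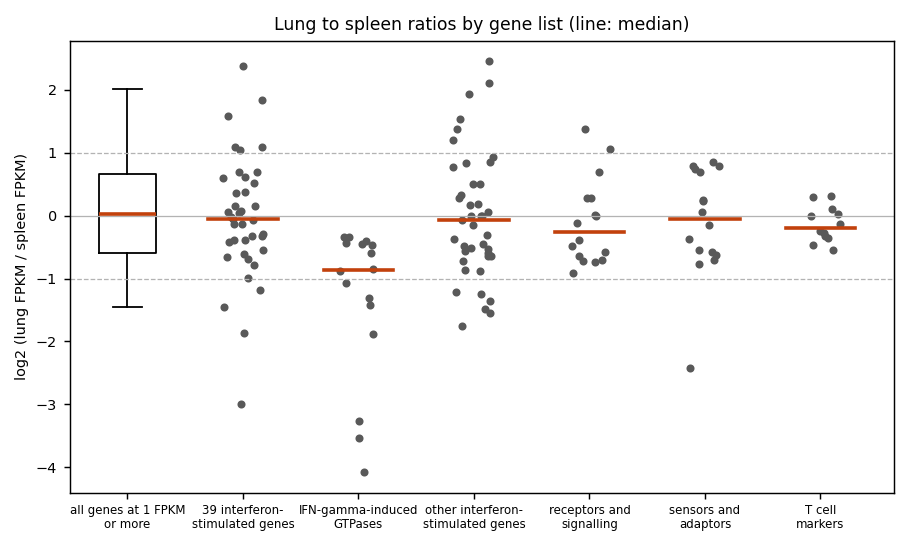
The log2 ratio of lung to spleen FPKM (y axis) of each gene in the interferon lists and in the T cell markers as points, with medians as orange lines. The box at the left gives the quartiles of all genes at 1 FPKM or more, with whiskers at the 10th and 90th percentiles, and the interferon-gamma-induced GTPases lie below 0 throughout.

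The libraries also differed in markers of other cells, and the part of this difference in the results above was not tested. T cell markers were level, with all 12 within 1.5-fold, a median log2 ratio of -0.19 and sums of 4976 FPKM in spleen and 4764 in lung, and Foxp3 was at 18.7 and 41.8 FPKM. Of the 9 Treg markers 4, Foxp3 among them, were higher in lung and 5 were lower, with log2 ratios from -1.19 to 1.44. The Treg markers had a median of -0.01 and sums of 1946 and 3037. All 12 macrophage markers were higher in lung and summed to 680 and 27262 FPKM, mostly through Lyz2, at 376 and 24947. Those of neutrophils (4 of 7 higher) summed to 465 and 1167, with Ngp, Camp and Mpo at 0 in lung. Markers of plasmacytoid dendritic cells (3 of 7 higher) summed to 23.9 and 18.5, with Klk1 at 0 in lung, and all 8 of B cells were lower, with sums of 264 and 139. Those of CD8 and NK cells (4 of 6 higher) summed to 39.7 and 106, with Ncr1 at 0 in lung. Lung epithelial markers (7 of 8 higher) summed to 11.0 and 3135, with Krt8, Sftpc and Sftpb at 0 in spleen. For fibroblasts (7 of 8 higher) the sums were 0.290 and 163 and for endothelium (5 of 8 higher) 0.856 and 18.2, where Col3a1, Pdgfra, Pdgfrb, Lum and Mgp, and Cdh5, Tek, Tie1 and Emcn, were at 0 in spleen. In lung, Pdgfrb, Kdr, Tie1 and Emcn were at 0.

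Scaling moved the ratios of all genes together. Rescaled to TPM, in which each library sums to the same total, the median of all genes was -0.40 and that of the 39 members -0.48, with 3 members over 2-fold higher and 9 over 2-fold lower, against 1586 and 3133 of the 12094 genes. Scaled to the T cell markers the medians were 0.22 and 0.14. The sign of 12 members turned with the scaling, among them Irf7, Irf9, Bst2, Rtp4 and Zbp1, and 3 of the 10 members over 2-fold different, Oas1a, Ifi27l2a and Xaf1, were inside 2-fold with TPM. The median of the interferon-gamma-induced GTPases was -1.29 with TPM and -0.67 with the T cell markers.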

How the data were processed

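Bulk RNA-seq of GFP+CD4+ cells was analysed, with 1 library of splenic and 1 of lung Tregs, assigned to tissues from their labels. Per the methods and the submitters' processing notes, the authors mapped 75-base single-end reads of SMART-Seq HT cDNA to mm10 with TopHat2 2.1.1, Bowtie2 2.2.8 and SAMtools 0.1.18, and the deposited FPKM were calculated by the authors with Cuffdiff 2.2.1. The annotation, the options of Cuffdiff and any scaling between libraries are not given in the sources used here. SMART-Seq HT cDNA carries no strand and no molecular identifiers.

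The lung FPKM was divided by the splenic FPKM with a floor of 0.1, and 2-fold was used to count genes. With 1 library per tissue no test was run. Reads were estimated from FPKM and effective lengths of GENCODE M21 transcripts tied to RefSeq (92.8% of symbols), with fragments of mean 200, SD 80 and at least 73 bases. The commonest value of FPKM times effective length, over transcripts from 1500 nt on, was taken as 1 read, which at 1 kb is 0.0964 FPKM in spleen and 0.0849 in lung. Of genes with a single length and 1 to 10 reads, 72.9% and 75.0% fell within 0.1 of a whole number. Counting intervals are exact (Clopper-Pearson) at 95%. For a gene with transcripts of different length the median was used, which makes its reads approximate. Shared windows are 75-base stretches of a gene's RefSeq-tied transcripts that also occur in GENCODE transcripts of another gene. How Cuffdiff divided reads of relatives and of overlapping genes, such as Parp9 and Dtx3l, is not known.

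All members are named. From the other lists, Jak1, Tyk2, the receptor chains, Ifnb1, Ifng and per list up to 4 genes with the largest absolute log2 ratio among those reaching 10 FPKM were named by rule, and any others after their values were seen. A gene that the rule also takes is not reported here. The members and lists were chosen with earlier results of these data known, and so were the floor and the read estimate. Alternatives were other floors, pseudocounts, scalings, filters, thresholds and a minimum of 3 reads per library. The steps were tested on simulated data. Scripts ran in Python 3.11.15 with scipy 1.17.1, pandas 2.3.3, numpy 2.4.6 and matplotlib 3.10.9.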

Additional observations from a re-analysis of the deposited data

How the results depend on the processing

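With rescaling to TPM, 3 members were over 2-fold higher in lung (6 as reported) and 9 over 2-fold lower (4), with Oas1a, Ifi27l2a and Xaf1 falling inside 2-fold and Isg15, Ifit2, Ddx58, Trim30a and Dtx3l passing it. At a threshold of 1.5-fold the counts were 10 and 9, and at 4-fold 1 and 1. With only genes of at least 10 FPKM in the higher library 1 member was over 2-fold lower, and 4 in place of 7 interferon-gamma-induced GTPases were over 2-fold lower. These changes follow from the scale, the threshold or the smaller number of genes. The median log2 ratio of the members lay between -0.48 (TPM) and 0.14 (T cell markers) over all settings, and 0 members passed 20-fold under any of them. Ifih1 was inside 2-fold with a pseudocount of 1 FPKM (-0.94 on the log2 scale) and when scaled to the T cell markers (-0.996), which left 3 members over 2-fold lower, and Isg15 passed it when the median ratio was set to 1 (-1.01). Among the values of single members under these settings 362 stayed within the counting interval of the reported value and 58 lay beyond it. The filters by FPKM leave a ratio as it is, and the floor of 0.01 FPKM and the minimum of 3 reads changed no member. Many of the 362 were thus fixed in advance. Most of the 58 came from rescaling to TPM or to the T cell markers. The settings for the lists outside the 39 genes were added after seeing the data. No paired analysis was possible because each tissue has 1 library. Ifi44, Mx2 and Oas2 are limited by depth, with fewer than 40 reads in the lower library.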
